A study of Mus musculus with 6 samples.

Results

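Cholesterol and fatty acid synthesis was examined in Treg cells of the mouse colon, the regulatory T cells defined by the transcription factor Foxp3, through 30 genes. They were chosen by name and taken as the rows of the raw count table with those symbols. All 30 were found among the 32090 genes of the table, and 29 passed the filter on low counts that left 12557 genes for testing; Fads2 did not pass. The cells were sorted as live CD45+ CD4+ Foxp3+ cells from colonic lamina propria, the connective tissue under the gut epithelium, of untreated C57/BL6 mice for bulk RNA sequencing. The WT group had the genotype Foxp3YFP-Cre, a Cre recombinase with a YFP tag that is expressed from Foxp3. The KO group, Il23rflflFoxp3YFP-Cre, carried the same Cre and, in addition, floxed alleles of the interleukin-23 receptor gene Il23r, so both groups carried the Cre. Each group had 3 libraries, and each library was a pool of at least 5 mice.

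Cells make cholesterol from acetyl-CoA through mevalonate and squalene. The genes of this route are switched on together by SREBP2, the product of Srebf2, which the escort protein Scap carries out of the endoplasmic reticulum when sterols are low and which Insig1 holds back when sterols are high. Fatty acids are made by Acaca and Fasn and then lengthened and desaturated. Cholesterol taken up by the cell leaves the lysosome through Npc2 and Npc1, is carried between membranes by Stard4 and is stored as esters by Soat1. T cells draw on these routes for new membrane when they grow and divide.

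Total estimated counts ranged from 9680503 to 20654340 per library. RNA integrity was 5 in WT2 and between 7.9 and 8.8 in the other libraries. WT1 and the library labelled KO1 came from one sort batch, WT2 and WT3 from another, and KO2 and KO3 from a batch each. Il23r stood at 19.4, 38.3 and 13.6 CPM (counts relative to TMM-scaled library size) in WT1, WT2 and WT3. It stood at 4.99 and 8.97 CPM in KO2 and KO3, and at 18.4 CPM in the library labelled KO1, inside the WT range (edgeR log2 fold change -1.14, SE 0.59, adjusted p = 0.573; exact two-sided permutation p = 0.2, where 0.1 is the smallest that 3 libraries against 3 allow). The Il23r estimate was -1.77 without the library labelled KO1, -0.62 without WT2, and -0.58 with RNA integrity as a covariate, with no call in any of these fits. Counts over the whole gene do not test the loss of a floxed exon. KO2 and KO3 lay closest to each other of all pairs, with a median absolute difference of 0.221 in log2 CPM against 0.466 for the next closest pair. Xist, the RNA of the inactive X chromosome, was at most 0.284 CPM in WT and between 1182 and 3472 CPM in KO, so that sex and genotype cannot be told apart for any gene below. Summed over 8 Treg and T cell markers, levels were 7912 to 8606 CPM across WT and 7756 to 8623 CPM across KO, with 0 of 8 called between groups. Summed over 10 macrophage markers they were 218 to 305 CPM across WT and 292 to 615 CPM across KO, with none at 0 in either group. Over 11 goblet and epithelial markers they were 15.5 to 41.4 CPM across WT and 55.8 to 143 CPM across KO, again with none at 0 in a whole group. Of these, 7 of 9 tested had positive log2 fold changes and 1, the mucus protein gene Fcgbp, was called by edgeR (adjusted p = 0.0169), while Epcam, the general epithelial marker, was at 6.22 to 17.99 CPM in WT and 3.29 to 7.54 CPM in KO. By DESeq2 3 of the 9 were called. Over all genes, DESeq2 called 1.89% and edgeR 0.0239%. In 4 of the 9 the groups did not overlap, all higher in KO, as were 9.68% of all tested genes. Summed over 5 fibroblast markers, levels were 16.5 to 26.9 CPM in WT and 1.34 to 10.4 CPM in KO, with 5 of 5 log2 fold changes negative and 0 called. Summed over 5 dendritic cell markers, they were 25.0 to 30.1 CPM in WT and 37.2 to 62.0 CPM in KO, with 0 of 3 tested called and Clec9a at 0 in KO. In bulk RNA, fewer cells of a type and less RNA per cell cannot be told apart.

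The promoters show what the members share beyond their names. RefSeq promoter windows (GRCm38.p6, 250 bases before to 50 after a gene's start) were at hand for 24 of the 30 members, all but Fdps, Fdft1, Sqle, Fads1, Stard4 and Npc1. SREBP2 is known to act beside the factors NF-Y, which binds the letters CCAAT, and Sp1, which binds the GC box GGGCGG. The letters CCAAT, on either strand, stood in 20 of the 24 members (83.3%) and in 43.1% of the 9846 tested genes with a window. Among the 15 enzymes of sterol synthesis with a window, 14 held them, the exception being Acat2. The letters GGGCGG stood in 20 of the 24 members, against 66.4% of tested genes. The letters CACGTG, the E-box, stood in 6 of the 24 (25.0%), against 11.8% of tested genes. A strict sterol response element, searched as TCACNCCAC on both strands, stood in 1 member, Hmgcs1, and in 1.32% of tested genes. A match is a string of letters, not a shown binding site, and a missing match says only that these letters are not in this window.

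Printed here are the windows of Hmgcs1, which holds both kinds of element, and of the 4 members with a window whose WT and KO libraries did not overlap. Capitals mark TCACNCCAC and CCAAT on either strand.
Hmgcs1, chr13:119690101-119690400, plus strand: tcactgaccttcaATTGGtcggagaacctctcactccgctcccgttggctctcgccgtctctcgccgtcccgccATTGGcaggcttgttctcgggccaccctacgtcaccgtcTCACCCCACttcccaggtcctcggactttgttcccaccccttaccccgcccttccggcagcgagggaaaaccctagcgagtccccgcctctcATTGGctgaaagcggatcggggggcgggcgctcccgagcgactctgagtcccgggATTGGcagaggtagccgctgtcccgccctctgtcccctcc
Acat2, chr17:12960676-12960975, minus strand: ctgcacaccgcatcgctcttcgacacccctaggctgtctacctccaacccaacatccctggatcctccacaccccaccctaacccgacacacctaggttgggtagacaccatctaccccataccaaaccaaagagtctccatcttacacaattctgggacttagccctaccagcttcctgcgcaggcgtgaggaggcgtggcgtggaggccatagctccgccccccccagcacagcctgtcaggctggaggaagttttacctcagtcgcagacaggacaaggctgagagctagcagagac
Tm7sf2, chr19:6067801-6068100, minus strand: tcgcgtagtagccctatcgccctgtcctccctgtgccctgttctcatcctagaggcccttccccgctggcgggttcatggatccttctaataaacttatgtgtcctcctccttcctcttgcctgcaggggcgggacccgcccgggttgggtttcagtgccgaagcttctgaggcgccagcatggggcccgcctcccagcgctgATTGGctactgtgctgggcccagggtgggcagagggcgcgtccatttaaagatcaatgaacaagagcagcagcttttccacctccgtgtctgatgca
Msmo1, chr8:64733529-64733828, minus strand: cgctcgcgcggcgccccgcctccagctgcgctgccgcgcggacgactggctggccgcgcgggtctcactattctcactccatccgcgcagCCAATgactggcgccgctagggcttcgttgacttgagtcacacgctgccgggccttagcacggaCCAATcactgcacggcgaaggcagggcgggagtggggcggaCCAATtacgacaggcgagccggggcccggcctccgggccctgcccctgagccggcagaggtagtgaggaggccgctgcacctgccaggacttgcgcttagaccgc
Soat1, chr1:156474279-156474578, minus strand: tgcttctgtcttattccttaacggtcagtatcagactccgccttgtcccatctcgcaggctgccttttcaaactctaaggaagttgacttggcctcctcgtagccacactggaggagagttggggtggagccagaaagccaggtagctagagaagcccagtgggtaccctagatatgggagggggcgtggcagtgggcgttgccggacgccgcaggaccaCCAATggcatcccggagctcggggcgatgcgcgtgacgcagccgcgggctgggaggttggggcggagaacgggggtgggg
Hmgcs1 held 1 sterol response element and 4 CCAAT boxes. Msmo1 held 3 CCAAT boxes, Tm7sf2 and Soat1 held 1 each, and Acat2 held none.

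Every one of the 30 genes had counts in both genotypes, and their summed level was close between them. Summed over all 30 genes, expression was 1978, 1884 and 2066 CPM across WT1, WT2 and WT3. The sum was 1746, 2087 and 2032 CPM across the libraries labelled KO1, KO2 and KO3. The group values were 1976 ± 90.8 CPM across WT and 1955 ± 183 CPM across KO (SD, n = 3), so the groups overlapped. Of the 29 tested members, 0 passed edgeR's quasi-likelihood test over all genes, where 0.0239% of all tested genes were called (3 of 12557). The members split into 15 with a positive and 14 with a negative log2 fold change of KO over WT. Their median was 0.07, and the median over all tested genes was -0.04. The 95% interval of the log2 fold change lay within a 2-fold change in either direction for 13 of the 29 members (44.8%) and for 24.4% of all tested genes. At an unadjusted p under 0.05 there were 5 members, Acat2, Msmo1, Soat1, Tm7sf2 and Dhcr7, where 9.37% of all tested genes lay under it. The 3 libraries of each group did not overlap in 5 of the 29 members (17.2%), against 17.7% of all tested genes, a share near the background. Acat2 and Soat1 were lower in KO without overlap, as were 8.01% of all tested genes, and Tm7sf2, Msmo1 and Fads1 were higher, as were 9.68%. DESeq2 called 1 member, Acat2, which was lower in KO, where it called 1.89% of genes (255 of 13516) and 0.673% as lower.

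**Figure D1:**
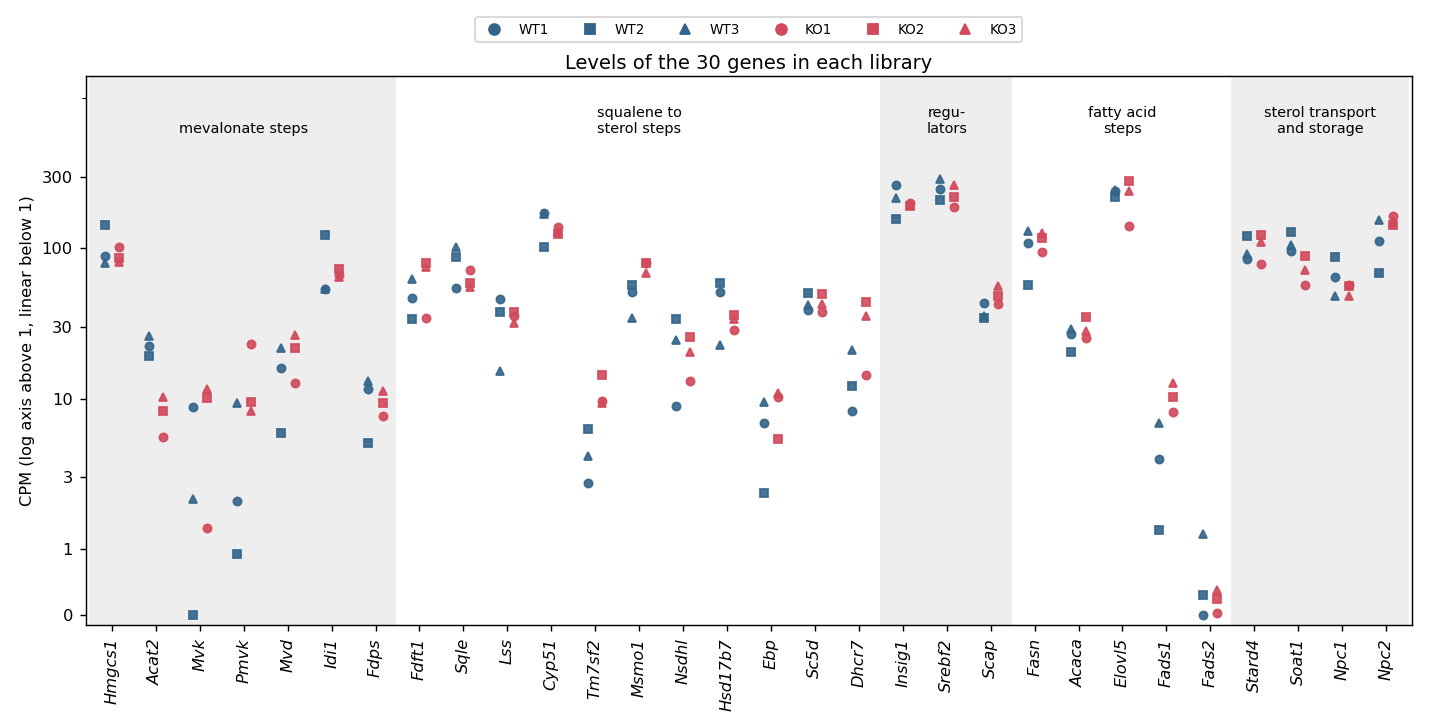
Each point is 1 library and gives the CPM of one gene (vertical axis, logarithmic above 1 and linear below 1), with the 30 genes along the horizontal axis in 5 groups by role, WT in blue and KO in red. Levels span from at most 1.25 CPM for Fads2 to between 141 and 288 CPM for Elovl5, Insig1 and Srebf2, and the colours overlap for most genes.

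Set per length of 1 chosen transcript a gene, the most abundant members in WT were a fatty acid elongase and 2 genes of the sterol sensor. Levels per length are mean CPM per kilobase of that GENCODE transcript, the longest of those with the best principal rank. The ranks depend on this choice. Npc2, for example, was divided by 3299 bases, and a shorter transcript would place it higher. Elovl5, which lengthens polyunsaturated fatty acids, led in WT with 84.5 ± 4.60 CPM per kilobase, and Insig1 came next with 78.8 ± 19.8. These neighbours did not differ beyond their spread. Srebf2 followed with 48.8 ± 7.89, Cyp51 with 37.7 ± 10.1, Npc2 with 33.9 ± 13.0 and Hmgcs1 with 30.1 ± 10.05 CPM per kilobase (SD, n = 3), and each of these 4 overlapped the next in that order. The lowest were Mvk at 2.19 ± 2.75, Fads1 at 1.18 ± 0.81 and Fads2 at 0.165 ± 0.206 CPM per kilobase. In KO, Elovl5 and Insig1 again held ranks 1 and 2 of 30, followed by Npc2, at rank 5 in WT and 3 in KO. Msmo1 stood at rank 9 in WT and 5 in KO, Pmvk at 25 and 14, Soat1 at 11 and 20 and Acat2 at 15 and 27. In KO Msmo1, at 37.2 ± 3.21 CPM per kilobase, stood above Cyp51, at 33.2 ± 2.03, and their libraries overlapped.

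The mevalonate steps turn acetyl-CoA into farnesyl diphosphate. Summed over 7 genes they were at 236 ± 54.2 CPM across WT and 216 ± 2.37 CPM across KO (SD, n = 3). The KO libraries lay inside the WT range, which ran from 203.5 CPM in WT1 to 299 CPM in WT2. Of the 7 genes 0 rose and 0 fell by the test, 3 had a positive log2 fold change, and the median was -0.07. Acat2, the cytosolic thiolase that joins acetyl-CoA units at the entry to the route, had the smallest p of all members. It was at 22.4, 19.2 and 26.0 CPM across WT1, WT2 and WT3. It was at 5.52, 8.28 and 10.2 CPM across the libraries labelled KO1, KO2 and KO3. Every KO library lay below every WT library. Its log2 fold change was -1.50 (SE 0.44, 95% interval -2.49 to -0.51) and did not pass edgeR's test (adjusted p = 0.435), while DESeq2 on the same counts called it (adjusted p = 0.0147). The authors' deposited table gave Acat2 a log2 fold change of -1.62 with an adjusted p of 0.00962, the only member that table called at 0.05, where it called 2.41% of rows (325 of 13509). Between WT1 and the library labelled KO1, which shared a sort batch, the log2 difference was -1.99. This single pair is also part of the fit, and its difference had the sign of the fit in 17 of the 29 members. For Il23r the difference of this pair was -0.08.

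Acat2 shares its sequence with neighbours. Its transcript matched that of Acat3, a paralog on the same chromosome 17, at 97.7% identity over 1477 bases, and matched Tcp1, a chaperonin subunit gene, over 445 bases on the opposite strand. Acat3 held 0, 0 and 121 counts in WT1, WT2 and WT3, and 278, 6 and 5 counts across the libraries labelled KO1, KO2 and KO3. It thus took 69.2% of the counts of the pair in the library labelled KO1 and 20.9% in WT3, against 4.23% or less in the other 4 libraries. Added up, the pair stood at 22.4, 19.2 and 32.9 CPM in WT and at 17.9, 8.64 and 10.5 CPM in KO. The groups were still apart, but only by the step from 17.9 CPM in the library labelled KO1 to 19.2 CPM in WT2. For the pair the log2 fold change was -1.01 (SE 0.44, 95% interval -2.01 to -0.01), with an adjusted p of 0.53 by edgeR and 0.235 by DESeq2. Within the shared sort batch the log2 difference of the pair was -0.32, against -1.99 for Acat2 alone. DESeq2's call of Acat2 was lost on the summed counts, a step chosen after the values were seen. Tcp1 was at 98.8 ± 14.8 CPM across WT and 86.5 ± 25.7 CPM across KO (SD, n = 3), with overlapping groups. Like Acat2, it was lowest in the library labelled KO1, at 59.1 CPM. Without known strand, reads of Acat2 and Tcp1 from their shared stretch may not be told apart. The part of Tcp1 in the Acat2 values was not tested.

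**Figure D2:**
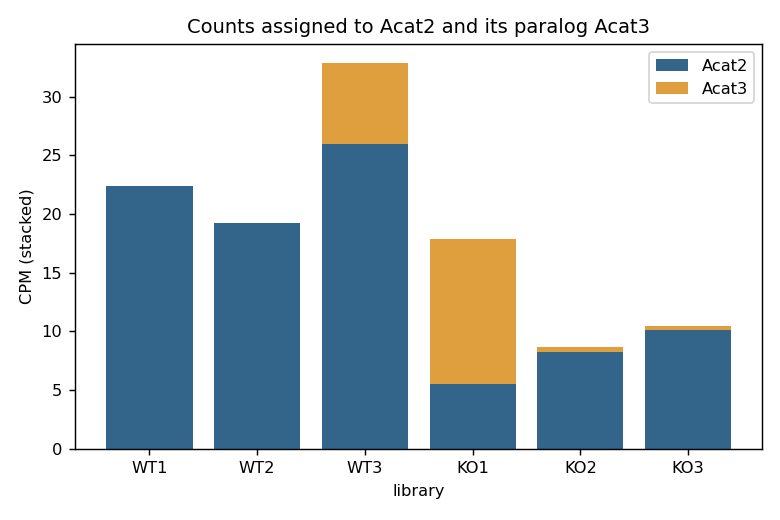
Stacked bars give the CPM of Acat2 (blue) and Acat3 (orange) in each of the 6 libraries, 1 bar a library with no error bar. The Acat2 part is lower in the 3 KO libraries, and the Acat3 part is large in WT3 and in the library labelled KO1, at 6.87 and 12.4 CPM.

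The remaining mevalonate genes did not separate by genotype. Hmgcs1, the HMG-CoA synthase, was at 88.7, 144 and 79.7 CPM across WT1, WT2 and WT3. It was at 101, 85.9 and 81.3 CPM across the libraries labelled KO1, KO2 and KO3. The KO values lay inside the WT range, with WT2 highest, and the log2 fold change was -0.22 (SE 0.27, edgeR adjusted p = 0.828). Pmvk, the phosphomevalonate kinase, had the largest positive estimate of the 29 members, 1.71 (SE 0.87, edgeR adjusted p = 0.569). It was at 2.08, 0.925 and 9.36 CPM across WT1, WT2 and WT3, against 23.2, 9.43 and 8.28 CPM across the libraries labelled KO1, KO2 and KO3. WT3 lay between KO3 and KO2, so the groups overlapped. The estimate ran from 1.07 to 3.18 as single libraries were left out. Mvk, the mevalonate kinase, had 0 counts in WT2 and 8.77 CPM in WT1, and ranged from 1.38 to 11.5 CPM in KO. Mvd, the decarboxylase, was at 14.6 ± 8.06 and 20.3 ± 6.98 CPM, and Idi1, the isomerase, at 77.1 ± 40.2 and 67.8 ± 4.38 CPM. Fdps, which makes farnesyl diphosphate, was at 9.91 ± 4.29 CPM across WT and 9.43 ± 1.76 CPM across KO (SD, n = 3). Its transcript matched those of 4 processed pseudogenes in the table at 96.1% to 98.9% identity, and all 4 held 0 counts. It also matched Gm43738, a protein-coding gene for which no count was used here, with full identity over 929 bases. Idi1 matched the processed pseudogenes Gm13502 and Gm35570, with full identity over 684 bases and 97.7% over 681, also without a count used here. The edgeR adjusted p of Mvk, Mvd, Idi1 and Fdps lay between 0.815 for Mvd and 0.977 for Fdps.

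The steps from squalene to sterol were at 492 ± 13.3 CPM across WT and 514 ± 40.8 CPM across KO, summed over 11 genes (SD, n = 3). By the test 0 rose and 0 fell, 6 of 11 had a positive log2 fold change, and the median was 0.09. The genes with the smallest p in this group, Msmo1, Tm7sf2 and Dhcr7, had higher means in KO. Msmo1, the sterol C-4 methyl oxidase, was at 51.2, 57.0 and 34.3 CPM across WT1, WT2 and WT3. It was at 80.1, 79.6 and 68.5 CPM across the libraries labelled KO1, KO2 and KO3. All KO libraries lay above all WT libraries. The log2 fold change was 0.68 (SE 0.26, 95% interval 0.09 to 1.27, edgeR adjusted p = 0.492), and within the shared sort batch the log2 difference was 0.64.

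Tm7sf2, a sterol reductase, was a low gene, at 2.74, 6.27 and 4.14 CPM across WT1, WT2 and WT3. It was at 9.62, 14.3 and 9.28 CPM across the libraries labelled KO1, KO2 and KO3, again with no overlap. Its log2 fold change was 1.34 (SE 0.59, 95% interval 0.02 to 2.65, edgeR adjusted p = 0.528), against 0.79 in the authors' deposited table. Within the shared sort batch the log2 difference was 1.77. Dhcr7, the reductase that makes cholesterol in its last step on one branch, was at 8.30, 12.03 and 21.2 CPM across WT1, WT2 and WT3. It was at 14.4, 44.2 and 35.7 CPM across the libraries labelled KO1, KO2 and KO3. KO2 and KO3 stood above all WT libraries while the library labelled KO1 lay among them. Dhcr7 had a log2 fold change of 1.18 (SE 0.52, edgeR adjusted p = 0.528), and in the authors' deposited table it was 1.12 with an adjusted p of 0.0514. The summed goblet and epithelial markers were also highest in KO2 and KO3, at 143 and 125 CPM, against 55.8 CPM in the library labelled KO1. Their part in the Dhcr7 values was not tested.

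**Figure D3:**
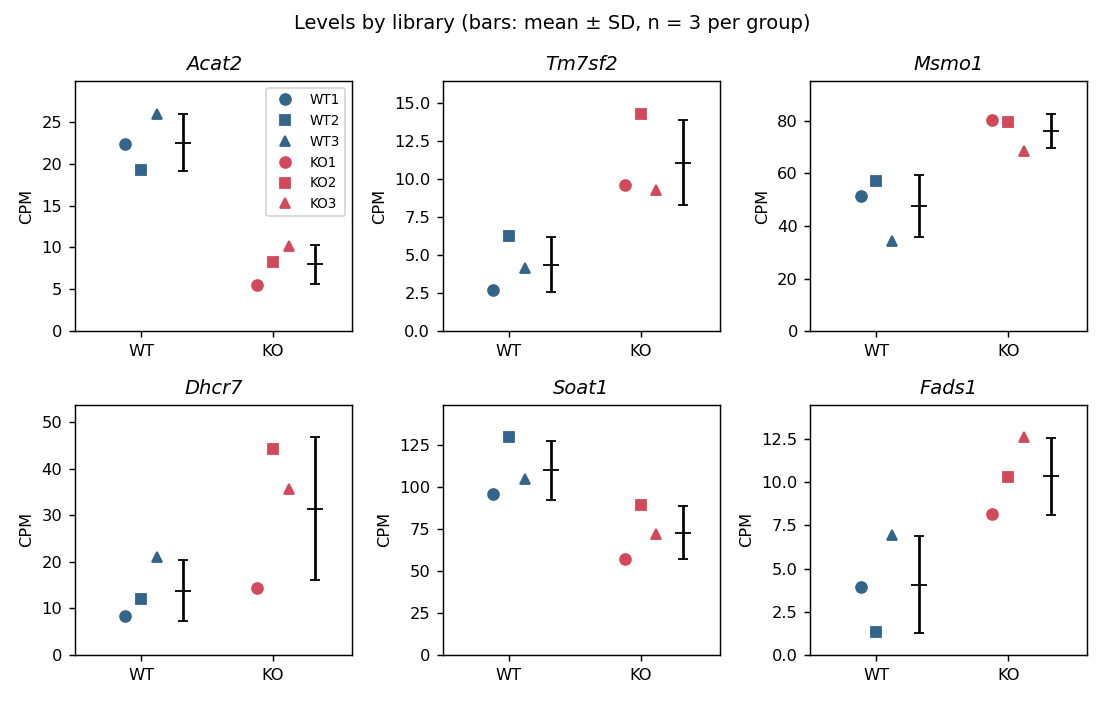
Points give the CPM of 6 genes in each library (circle, square and triangle for replicates 1, 2 and 3), and the black bars give the mean ± SD of each group, n = 3. WT and KO libraries do not overlap for Acat2, Tm7sf2, Msmo1, Soat1 and Fads1, and they do for Dhcr7, where the library labelled KO1 lies at 14.4 CPM.

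The other 8 genes from squalene to sterol overlapped between groups. Cyp51, the lanosterol demethylase and in WT the most abundant of the 11 per length, was at 172, 102 and 170 CPM across WT1, WT2 and WT3. It was at 139.5, 124 and 128.5 CPM across the libraries labelled KO1, KO2 and KO3, all within the WT range. Its log2 fold change was -0.18 (SE 0.24, 95% interval -0.71 to 0.35, edgeR adjusted p = 0.846). Sqle, the squalene epoxidase, was at 81.2 ± 23.9 CPM across WT and 61.9 ± 8.37 CPM across KO. Fdft1, the squalene synthase, was at 47.7 ± 14.3 and 63.1 ± 25.1 CPM (SD, n = 3). The transcript of Fdft1 matched that of Ctsb, cathepsin B, over 774 bases on the opposite strand, and Ctsb was at 258 ± 86.3 and 291 ± 34.5 CPM. It also matched the processed pseudogene Gm6781 at 97.4% over 1249 bases, for which no count was used here. Without known strand, reads of Fdft1 and Ctsb from their shared stretch cannot be told apart. Lss, which closes the sterol rings, was at 33.0 ± 15.8 and 35.0 ± 2.87 CPM, and Hsd17b7, a sterol ketoreductase, at 44.2 ± 19.2 and 32.9 ± 3.96 CPM. Sc5d, a sterol desaturase, was at 43.6 ± 5.86 CPM across WT and 43.4 ± 6.03 CPM across KO, and its 95% interval ran from -0.59 to 0.58. Nsdhl and Ebp, a sterol dehydrogenase and a sterol isomerase, lie on chromosome X. Nsdhl was at 22.3 ± 12.6 and 19.7 ± 6.31 CPM and Ebp at 6.24 ± 3.60 and 8.82 ± 3.02 CPM (SD, n = 3), and neither passed (edgeR adjusted p = 0.935 and 0.850).

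The genes of the sterol sensor each overlapped between WT and KO. Over Insig1, Srebf2 and Scap together, levels were 498 ± 85.7 CPM across WT and 469 ± 44.0 CPM across KO (SD, n = 3), 0 of 3 passed, and the 95% interval of each lay within a 2-fold change. Insig1, which is also a known target of SREBP2, was at 263, 157 and 218 CPM across WT1, WT2 and WT3. It was at 199, 192 and 195 CPM across the libraries labelled KO1, KO2 and KO3, all inside the WT range. Insig1 had a log2 fold change of -0.12 (SE 0.22, 95% interval -0.62 to 0.37, edgeR adjusted p = 0.897). Srebf2 was at 247, 208 and 288 CPM across WT1, WT2 and WT3, against 188, 220 and 265 CPM across the libraries labelled KO1, KO2 and KO3. The ranges overlapped, and the log2 fold change was -0.14 (95% interval -0.62 to 0.33, edgeR adjusted p = 0.868). Scap was at 37.6 ± 4.95 CPM across WT and 49.0 ± 6.69 CPM across KO (SD, n = 3). Its log2 fold change was 0.38 (SE 0.26, 95% interval -0.20 to 0.96, edgeR adjusted p = 0.666), so the interval came near a 2-fold rise.

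**Figure D4:**
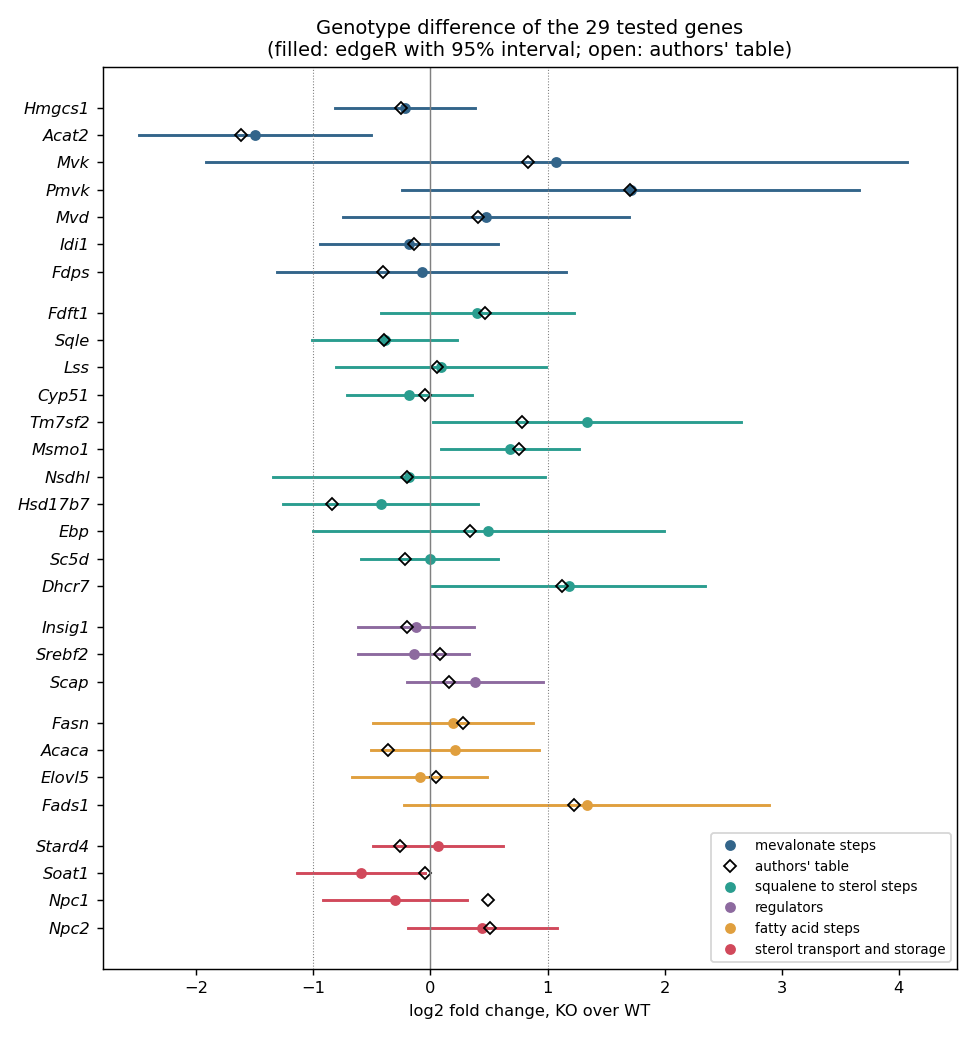
Filled points give edgeR's log2 fold change, KO over WT, for the 29 tested genes with 95% intervals as lines, coloured by role, and open diamonds give the authors' deposited values. Dotted lines mark a 2-fold change. Intervals lie between these lines for the regulators and are widest for Mvk and Pmvk. The diamond of Npc1 lies on the other side of 0 from its point.

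Fatty acid synthesis was measured through Fasn, Acaca, Elovl5, Fads1 and Fads2. Of the 4 that were tested 0 passed, 3 had a positive log2 fold change, and the median was 0.20. Elovl5 was at 240, 220.5 and 245 CPM across WT1, WT2 and WT3. It was at 140.5, 281 and 240 CPM across the libraries labelled KO1, KO2 and KO3, where the library labelled KO1 was lowest and KO2 highest of the 6. Elovl5 had a log2 fold change of -0.09 (SE 0.26, edgeR adjusted p = 0.935). Fasn, the fatty acid synthase, was at 98.4 ± 37.4 CPM across WT and 112.6 ± 16.7 CPM across KO, and Acaca, the carboxylase before it, at 25.5 ± 4.54 and 29.4 ± 5.09 CPM (SD, n = 3). WT and KO overlapped for both genes. The transcript of Acaca matched the processed pseudogene Gm5182 at 99.2% over 6118 bases, and no count of Gm5182 was used here. Fads1, a front-end desaturase of polyunsaturated fatty acids, was at 3.96, 1.34 and 6.92 CPM across WT1, WT2 and WT3. It was at 8.15, 10.3 and 12.6 CPM across the libraries labelled KO1, KO2 and KO3, all above WT. Its log2 fold change was 1.33 (SE 0.69, 95% interval -0.23 to 2.89, edgeR adjusted p = 0.572), and within the shared sort batch the log2 difference was 1.02. Fads2, its neighbour on chromosome 19 and the desaturase of the step before, held 0, 3 and 22 counts in WT1, WT2 and WT3 and 1, 4 and 6 counts across the libraries labelled KO1, KO2 and KO3. At this depth no difference in Fads2 could be measured.

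Sterol transport and storage was at 387 ± 27.1 CPM across WT and 382 ± 27.0 CPM across KO, summed over 4 genes (SD, n = 3), of which 0 passed. Soat1, which esterifies cholesterol for storage, had a lower mean in KO. It was at 95.4, 129 and 105 CPM across WT1, WT2 and WT3, against 57.3, 88.8 and 72.0 CPM across the libraries labelled KO1, KO2 and KO3, with no overlap. The log2 fold change was -0.59 (SE 0.24, 95% interval -1.14 to -0.05, edgeR adjusted p = 0.505), and -0.73 within the shared sort batch. In the authors' deposited table it was -0.05. The summed fibroblast markers were also lower in every KO library, and the summed dendritic cell markers higher; their part in the Soat1 values was not tested. Npc2, the lysosomal protein that lifts cholesterol out of lipoprotein remnants, was at 112, 69.0 and 155 CPM across WT1, WT2 and WT3. It was at 164, 143 and 151 CPM across the libraries labelled KO1, KO2 and KO3. WT3 lay inside the KO range, so the groups overlapped, and the log2 fold change was 0.44 (SE 0.28, edgeR adjusted p = 0.641). Of the macrophage markers, 10 of 10 had positive log2 fold changes with a median of 0.94, and 0 were called. Their summed level was 615, 433 and 292 CPM across the libraries labelled KO1, KO2 and KO3, in which order Npc2 was highest, lowest and between. Their part in the Npc2 values was not tested. Npc1, the membrane partner of Npc2, was at 66.4 ± 19.5 and 53.8 ± 4.58 CPM, and Stard4, a soluble sterol carrier, at 99.0 ± 18.5 and 104 ± 22.7 CPM (SD, n = 3).

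The estimates from the deposited counts and the authors' deposited table were close for most members but not all. The sign differed for 5 of 29 members (17.2%), Srebf2, Acaca, Elovl5, Stard4 and Npc1, and for 11.7% of all tested genes. The widest gap was in Npc1, at -0.30 from the counts and 0.49 in the authors' deposited table. The transcript of Npc1 matched that of Rmc1 over 323 bases on the opposite strand, and Rmc1 was at 32.6 ± 5.68 CPM across WT and 32.5 ± 4.65 CPM across KO (SD, n = 3). Reads of Npc1 and Rmc1 from this stretch cannot be told apart without known strand. Acaca was at 0.21 and -0.36, Tm7sf2 at 1.34 and 0.79 and Soat1 at -0.59 and -0.05 in the same order. DESeq2 on the counts differed from edgeR by at most 0.007 in any of the 29 members. The cause of the gaps was not tested.

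WT2, the library of RNA integrity 5 and also of the fewest counts, stood apart most often. The part of either was not tested. WT2 was the highest or the lowest of the 6 libraries in 20 of the 29 tested members (69.0%), against 52.5% of all tested genes. It was lowest for 13, among them Fasn, Insig1, Cyp51 and Npc2, and highest for 7, among them Hmgcs1, Idi1 and Soat1. KO2 and KO3 were the lowest library for 0 members, against 1567 and 1035 of all 12557 tested genes. The median coefficient of variation of the members was 33.4% in WT and 17.3% in KO, against 42.6% and 23.6% over all tested genes.

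Without WT2, without the library labelled KO1, or with KO2 and KO3 summed into 1 library, edgeR called 0 members. The median log2 fold change of the members was 0.09, 0.14 and -0.01 in these 3 fits, against 0.07 with all libraries. For Acat2 the estimate was -1.61, -1.30 and -1.60, for Msmo1 0.82, 0.64 and 0.71, and for Soat1 -0.47, -0.46 and -0.66. Tm7sf2 stood at 1.66, 1.42 and 1.30, Fads1 at 0.91, 1.47 and 1.27, and Dhcr7 at 1.07, 1.52 and 0.99. Pmvk stood at 1.23, 1.07 and 1.95 and Npc2 at 0.18, 0.38 and 0.48. These 8 genes were picked by their small p in the same libraries, and the 3 fits reuse most of the data. Their direction was the same in each fit, which is therefore no independent support. Of all 29 tested members, 11 changed sign at least once over the 17 alternatives.

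**Figure D5:**
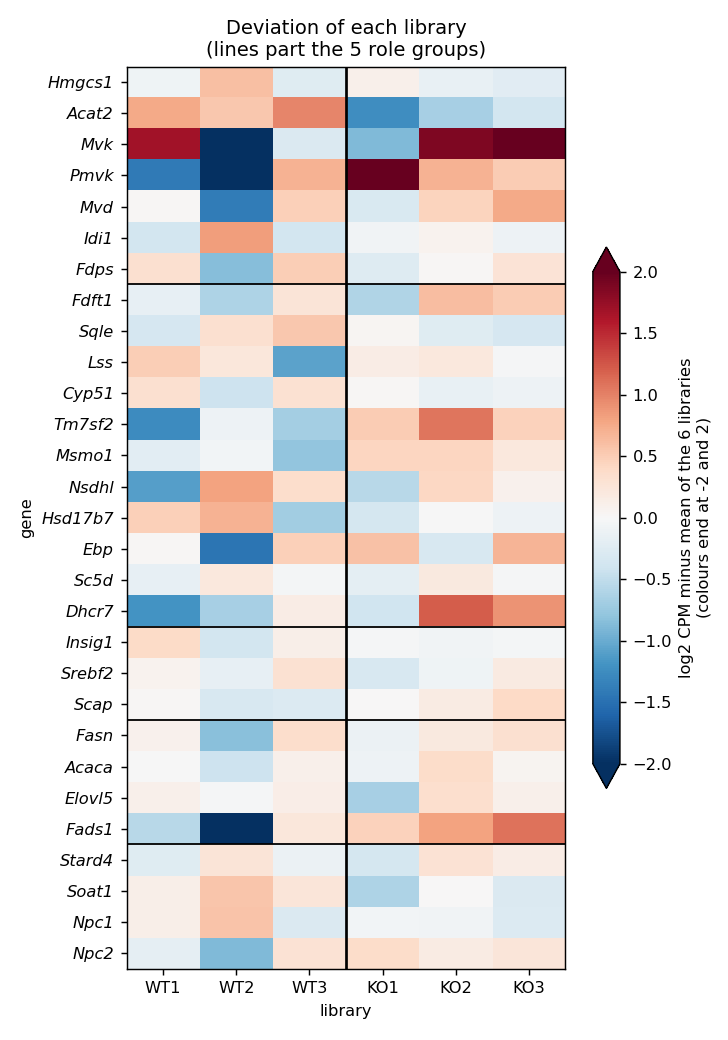
Colours give log2 CPM minus the mean of the 6 libraries for each of the 29 tested genes (rows, parted by role) in each library (columns), red above and blue below the mean. The WT2 column holds the strongest blues, for Mvk, Pmvk and Fads1, and the KO2 and KO3 columns resemble each other.

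Beyond these 30 genes, 71 others of sterol and fatty acid synthesis, uptake, storage and transport were read from a list, and 63 passed the filter. By edgeR 0 rose and 0 fell, 26 had a positive log2 fold change, and the median was -0.15. An unadjusted p under 0.05 was found for 3 of the 63, where 9.37% of all tested genes lay under it. The groups did not overlap in 8 of the 63 (12.7%), against 17.7% of all tested genes. DESeq2 called 0 of the 68 for which it gave an adjusted p. The smallest p belonged to Scarb1, a scavenger receptor that takes up cholesterol esters from lipoproteins. It was at 1.32, 0.617 and 2.21 CPM across WT1, WT2 and WT3, against 2.90, 11.99 and 7.46 CPM across the libraries labelled KO1, KO2 and KO3 (edgeR log2 fold change 2.41, SE 0.86, adjusted p = 0.487). KO2 and KO3 were again the highest, as for the epithelial markers, whose part was not tested. Srebf1, the SREBP gene that drives fatty acid synthesis, was at 28.2, 45.2 and 48.9 CPM in WT and 54.9, 68.2 and 82.8 CPM in KO, in the same order of libraries. Its groups did not overlap, and its log2 fold change was 0.75 (SE 0.29, edgeR adjusted p = 0.499). Acacb, the carboxylase tied to fatty acid oxidation, was at 1.17 ± 0.99 CPM across WT and 7.48 ± 2.78 CPM across KO, and Elovl6, an elongase of saturated fatty acids, at 57.9 ± 36.3 and 31.0 ± 3.30 CPM (SD, n = 3). For Elovl6 WT1 stood at 98.2 CPM, against 27.7 and 47.7 CPM for WT2 and WT3, and the log2 fold change was -0.90 with all libraries and -0.29 without WT1. Neither passed edgeR's test (adjusted p = 0.505 and 0.548). The authors' deposited table called Scarb1, with a log2 fold change of 4.11 and an adjusted p of 0.00289, and Elovl6, with -1.94 and 0.0261. Of the 71, only the genes named here were looked up in that table, where 2.41% of rows were called.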

How the data were processed

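RNA was taken from sorted colonic Treg cells, amplified with the Ovation RNASeq System V2 kit and made into libraries with an NEB kit, per the labels' protocols. Tools named, in the submitters' processing notes, are Salmon 1.4.0, fastp 0.20.0, DESeq2 1.34.0 and R 4.1.2. The sources used here do not give the build, annotation or strand. The deposited table holds estimated counts per gene, rounded to whole numbers, for 32161 rows. It also holds the authors' mean normalized signal, log2 fold changes, test score, p-values and adjusted p-values, read as such per the file headers. Another table had 6 value columns with names that fit no sample; they were not used.

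Rows with the same Entrez identifier were summed (71 rows fewer). After filterByExpr (minimum count 10, minimum total 15) and TMM scaling, WT and KO were compared by edgeR 4.0.16 (R 4.3.3; glmQLFit and glmQLFTest, no covariate), and p-values were adjusted by Benjamini-Hochberg over all 12557 tested genes at 0.05. CPM use TMM-scaled library sizes, and log2 CPM a prior count of 2. The 95% intervals of log2 fold changes come from the same fit. P-values measure the spread between pools. Alternatives used limma 3.58.1 and DESeq2 1.42.0. The methods were tested on simulated data, with changes larger than the estimate of any member. The simulation gave all genes and libraries the same dispersion, whereas in these data the spread differed between WT and KO. It does not show how well smaller changes, or changes amid the uneven spread of these data, are found. Counts of amplified reads carry no molecular identifiers, and ribosomal Rn18s-rs5 took 9.86% to 21.5% of them.

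All members are named. Every library's value is given for the 8 members with the smallest unadjusted p and the 6 most abundant per length. Of the other pathway genes, those with the 4 smallest p are named. The members and lists were chosen with earlier results of these data known. Levels per length use 1 principal transcript a gene from GENCODE M21, the longest where several shared the best rank. Other transcripts were not tried. Shared sequence was searched with BLAST among GENCODE transcripts at 95% identity or more over at least 200 bases. Same-numbered WT and KO libraries did not deviate together.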

Additional observations from a re-analysis of the deposited data

How the results depend on the processing

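The 29 tested members were refitted under 17 alternatives. With 1 exception, DESeq2's Wald test, which called Acat2, every alternative called 0 members, as the main test did. DESeq2's members called were thus 1, and on the summed counts of Acat2 and Acat3, added after the data were seen, 0. The log2 fold change of Acat2 ran from -1.70 to -1.30 over the 17 alternatives and its adjusted p from 0.0147 to 0.999; that of the summed pair was -1.01. Of the 29 members, 18 kept their sign throughout, among them Acat2, Msmo1, Tm7sf2, Dhcr7, Soat1, Fads1 and Pmvk. The other 11 changed sign at least once while uncalled. With RNA integrity as a covariate, log2 fold changes were -0.11 for Fasn, 0.10 for Hmgcs1, 0.33 for Idi1, -7.73e-05 for Mvd, 0.20 for Nsdhl and 0.10 for Sc5d. With limma-voom they were 0.053 for Elovl5, 0.0324 for Fdps, 0.05 for Idi1, 0.29 for Nsdhl and 0.0729 for Sc5d. Sc5d was at 0.0361 with upper-quartile scaling and 0.0362 without a filter, and Stard4 at -0.0146 with KO2 and KO3 summed. Leaving out single libraries, log2 fold changes ran from -0.30 to 0.14 for Elovl5, -0.0938 to 0.45 for Fasn, -0.40 to 0.18 for Fdps, -0.38 to 0.0761 for Hmgcs1, -0.39 to 0.32 for Idi1, -0.31 to 0.0571 for Insig1, -0.25 to 0.40 for Lss, -0.56 to 0.22 for Nsdhl, -0.11 to 0.0921 for Sc5d and -0.0617 to 0.23 for Stard4. The cause of these changes was not tested. Over the whole table, 255 genes were called by DESeq2, 9 without a filter, 1 with RNA integrity as a covariate, 1 with KO2 and KO3 summed, and 1 to 4 as single libraries were left out, against 3 in the main test. With the replicate number as a block, 3 genes and 0 members were called, and Fdps was at 0.0168. Among same-numbered libraries, only WT1 and the library labelled KO1 shared a sort batch. The deviations of same-numbered libraries from their group means correlated at 0.009, 0.049 and 0.026 across genes. With so few libraries this cannot show that no pairing exists.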
